A study of Mus musculus with 8 samples.

Results

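The axonemal dynein, radial spoke and tektin genes encode the machinery that bends the sperm tail and parts of its scaffold. In mouse testes without Ing2 37 of the 40 measured genes had lower mean levels than in wild-type testes, each by less than 2-fold, and none passed the test across all genes on its own. The set was drawn up with earlier results of these data known and takes its genes by symbol. It holds 41 genes in 9 roles: outer arm dynein heavy chains, inner arm heavy chains, intermediate and light chains, assembly factors, the ruler and nexin-dynein regulatory complex, tektins, radial spoke proteins, the central apparatus and other sperm proteins. Of the 41 genes, 40 had at least 1 probe set of their own among the 19938 genes measured, and the brightest probe set stands for a gene that had several. Rsph3a, which encodes a radial spoke protein, shared both its probe sets with Rsph3b and has no value of its own.

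Whole testis RNA of 5 Ing2-/- mice and 3 Ing2+/+ mice, all 2 to 3 months old, was profiled on Affymetrix Mouse Gene ST arrays, with 1 array per mouse. Ing2 encodes a chromatin protein of the Sin3-HDAC complexes that binds trimethylated lysine 4 of histone H3. The Ing2-/- mice lacked exon 2 in all tissues after germline deletion with the EIIa-Cre transgene, which was then bred out, and their background mixed the strain of the ES cells with C57BL/6J. The deletion was therefore present in germ cells and somatic cells alike, and the sources used here do not say whether the arrayed mice were littermates. Levels are log2 values after RMA, a procedure that brings the arrays to a common distribution, so a level says how much of a transcript there was relative to the rest of that testis's RNA. The levels of Ing2 itself ran from 5.06 to 5.64 in Ing2-/- testes and from 7.34 to 7.60 in Ing2+/+ testes, without overlap.

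A motile axoneme is a ring of doublet microtubules around a central pair. Dynein arms on each doublet walk along its neighbour, radial spokes carry signals from the central apparatus to the arms, the nexin-dynein regulatory complex links the doublets, and tektins run along the inside of the doublet wall. In the testis these genes are switched on as germ cells pass through meiosis and become spermatids, which then build the flagellum. Several proteins exist as paralogs, with one form in sperm and another in the multiciliated cells of the airway and the male ducts.

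Factors of the RFX family and FOXJ1 are known regulators of motile cilia genes, and CREM, which binds the cyclic AMP response element, of spermatid genes. Their short motifs were looked for on both strands of the promoter windows that RefSeq gives in build GRCm38.p6, from 250 bases before to 50 bases after a transcript start. Of the 40 genes, 35 had such a window. The RFX X-box half-site GTTNCCATG was found in the windows of 2 of these 35 genes, Dnah5 and Dnali1 (5.71%, against 2.22% of all 27025 genes with a window). The FOXJ1 motif GTAAACA was found in 2, Dnah17 and Tekt3 (5.71%, against 4.05%), and the cyclic AMP response element TGACGTCA, which reads the same on both strands, in 1, Dnah6 (2.86%, against 2.03%). Only these exact strings were searched, with any base at N, so sites of the same factors with other letters were not counted. The counts therefore do not show that the other windows lack such sites. The motifs do not overlap one another in these windows, and the letters of a match are a description of the window and not a binding site. One window per motif is shown to let the match be seen in its surroundings, with the matched letters in capitals.
Dnali1 promoter, chr4:125065608-125065907, minus strand, X-box half-site starting 8 bases before the start: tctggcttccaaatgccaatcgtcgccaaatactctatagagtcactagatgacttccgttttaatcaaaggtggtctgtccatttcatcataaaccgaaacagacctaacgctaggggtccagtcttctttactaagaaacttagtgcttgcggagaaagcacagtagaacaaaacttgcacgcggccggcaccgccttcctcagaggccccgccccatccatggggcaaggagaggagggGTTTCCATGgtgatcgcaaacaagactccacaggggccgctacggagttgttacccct
Tekt3 promoter, chr11:63061409-63061708, plus strand, FOXJ1 motif read on the other strand, its leftmost base 174 bases before the start: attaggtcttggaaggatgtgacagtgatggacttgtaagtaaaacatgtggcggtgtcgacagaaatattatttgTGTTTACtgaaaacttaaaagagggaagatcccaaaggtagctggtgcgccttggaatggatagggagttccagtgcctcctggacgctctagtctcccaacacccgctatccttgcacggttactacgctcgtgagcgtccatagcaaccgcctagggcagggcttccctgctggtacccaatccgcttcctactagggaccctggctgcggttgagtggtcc
Dnah6 promoter, chr6:73221582-73221881, minus strand, cyclic AMP response element starting 175 bases before the start: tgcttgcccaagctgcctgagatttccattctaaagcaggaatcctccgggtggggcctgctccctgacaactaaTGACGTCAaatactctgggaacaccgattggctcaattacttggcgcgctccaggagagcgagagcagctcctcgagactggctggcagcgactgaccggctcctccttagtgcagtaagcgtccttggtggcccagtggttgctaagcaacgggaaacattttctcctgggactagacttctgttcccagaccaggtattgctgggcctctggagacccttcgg
The levels of these genes in the arrays are given with their roles.

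Of the 40 genes, 37 had a lower mean level in Ing2-/- than in Ing2+/+ testes, where 45.7% of all genes did. The median log2 fold change (Ing2-/- minus Ing2+/+) was -0.32 over the 40 genes and 0.02 over all genes, and the 40 values ran from -0.73 for Spag1 to 0.18 for Dnah9. None reached a 2-fold difference. In 26 of the 40 genes every Ing2-/- array lay below every Ing2+/+ array, which held for 14.9% of all genes, and in 1, Rsph4a, every Ing2-/- array lay above (16.7% of all genes). With limma and Benjamini-Hochberg adjustment over all probe sets, no single gene of the set passed an adjusted p of 0.05: 0 were called lower and 0 higher, against 3.01% and 1.97% of all genes. At an unadjusted p under 0.05 limma gave 12 lower (13.5% of all genes) and 0 higher (3288 of all 19938 genes). The adjusted p-values of the 40 genes ran from 0.0611 to 0.661. The random variance model, the methods' own test, also called 0 at an adjusted p under 0.05 and 0 at an unadjusted p under 0.001.

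The spread among the Ing2-/- testes was wide. In 39 of the 40 genes the SD of the 5 Ing2-/- arrays was larger than that of the 3 Ing2+/+ arrays, with medians of 0.295 and 0.06. Replicate 3 of the Ing2-/- group was the lowest Ing2-/- array in 36 genes, and over the 40 genes it lay 0.77 below the Ing2+/+ mean, where Ing2-/- replicates 1, 2, 4 and 5 lay 0.16, 0.21, 0.14 and 0.35 below it. The Ing2+/+ arrays lay between -0.01 and 0.03 of their mean. Without Ing2-/- replicate 3, the median log2 fold change was -0.19, and 37 genes were negative. In 24 of the 40 genes the difference with this array was more than 1.5 times that without it. Without it limma called 8 genes lower (7.76% of all genes): Spag1, Dnaic2, Rsph6a, Dnah3, Spag16, Ccdc40, Spag6 and Tekt5. Without Ing2-/- replicate 4 it called 1, Spag1, with an adjusted p of 0.0472, where 656 of all 19938 genes were called lower. Without any other array it called 0, where 36 to 346 of all genes were called lower. With array weights, which gave replicate 3 a weight of 0.212 and the other arrays 0.851 to 2.05, it called 9 (9.28% of all genes), the first 7 of those 8 together with Tekt4 and Dnah10.

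**Figure D1:**
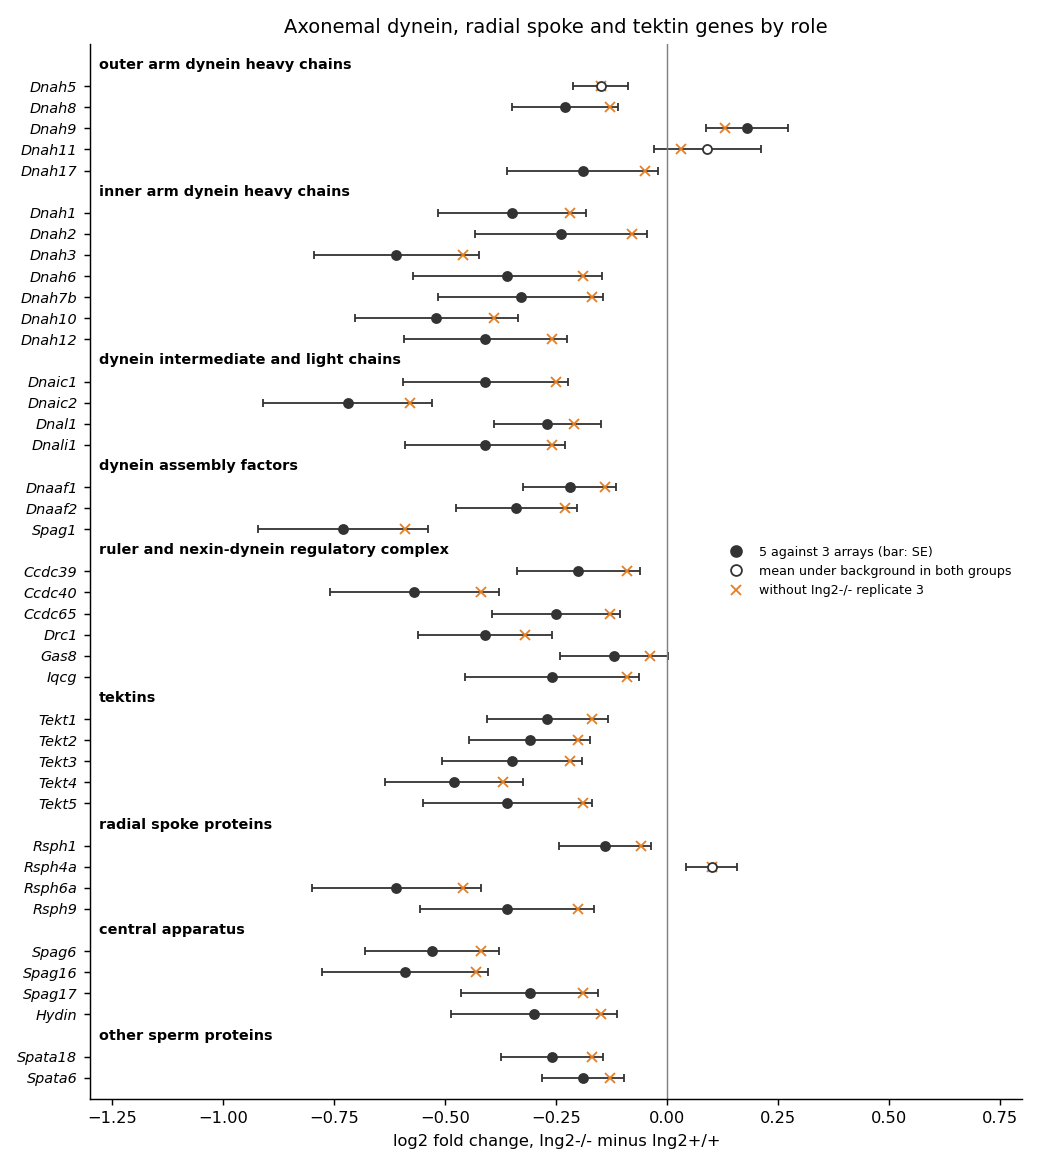
Log2 fold change (x axis, Ing2-/- minus Ing2+/+, bars are SE of the limma fit of 5 against 3 arrays) of the 40 genes, grouped by role, with a cross for the difference without Ing2-/- replicate 3. Of the 40 points, 37 lie left of 0, and without replicate 3 the median was -0.19 where it was -0.32 with it.

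The outer arm heavy chains are the motors that set the beat frequency, and they come in sperm forms and in forms of multiciliated cells. Dnah8 and Dnah17, the sperm forms of the gamma and beta heavy chains, averaged 11.52 ± 0.22 and 10.37 ± 0.33 (log2, SD, n = 5) in Ing2-/- testes and 11.74 ± 0.03 and 10.55 ± 0.06 (SD, n = 3) in Ing2+/+ testes, with log2 fold changes of -0.23 and -0.19. Their counterparts in multiciliated cells, Dnah5, Dnah9 and Dnah11, had log2 fold changes of -0.15, 0.18 and 0.09. Dnah5 measured 5.28, 5.28, 5.30, 5.38 and 5.20 in Ing2-/- testes and 5.40, 5.48 and 5.43 in Ing2+/+ testes. The groups did not overlap (log2 fold change -0.15, SE 0.0623, adjusted p = 0.163 from limma), but both group means lay under the median of unnamed probe sets on each array, 5.54 to 5.62 in Ing2-/- and 5.47 to 5.51 in Ing2+/+ testes, so Dnah5 was not shown to be above background. The group means of Dnah11 lay under these medians too. Dnah9 measured 6.53, 6.54, 6.86, 6.62 and 6.73 in Ing2-/- testes and 6.58, 6.39 and 6.45 in Ing2+/+ testes, with overlap and an adjusted p of 0.230. Its highest array was Ing2-/- replicate 3, the array in which most of the other genes were lowest.

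All 7 inner arm heavy chains, which shape the waveform, had negative log2 fold changes, from -0.24 to -0.61 with a median of -0.36. Without Ing2-/- replicate 3 the median was -0.22, and Dnah2 had -0.08 where it had -0.24 with it. Dnah3 measured 9.82, 9.72, 9.13, 10.10 and 9.77 in Ing2-/- testes and 10.43, 10.22 and 10.29 in Ing2+/+ testes. Every Ing2-/- array was lower than every Ing2+/+ array, replicate 3 lowest and replicate 4 nearest to the Ing2+/+ range (log2 fold change -0.61, SE 0.185, adjusted p = 0.0851). Dnah10 measured 8.59, 8.42, 7.80, 8.69 and 8.22 in Ing2-/- testes and 8.83, 8.82 and 8.95 in Ing2+/+ testes. Here too the groups did not overlap (log2 fold change -0.52, SE 0.183, adjusted p = 0.111). The others were Dnah12 (-0.41), Dnah6 (-0.36), Dnah1 (-0.35), Dnah7b (-0.33) and Dnah2 (-0.24), and in Dnah6 and Dnah2 the groups overlapped.

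Several of these long genes were covered by more than 1 probe set, which gives further readings of the same gene in the same testes and no further replicates. All 33 probe sets of Dnah3 were lower in Ing2-/- testes, with log2 fold changes of -0.85 to -0.29 and a median of -0.65. In all 33 the groups did not overlap, with every Ing2-/- array below, which held for 14.9% of all genes. Of the 33, 2 were called lower by limma, where 3.01% of all genes were. One averaged 7.63 ± 0.32 in Ing2-/- and 8.36 ± 0.10 in Ing2+/+ testes (adjusted p = 0.0476). The other averaged 8.87 ± 0.28 in Ing2-/- and 9.50 ± 0.01 in Ing2+/+ testes (adjusted p = 0.0487, SD, n = 5 and 3). The brightest, which stands for the gene, was not called. Ing2-/- replicate 3 was the lowest Ing2-/- array in 32 of the 33. The 5 probe sets of Dnah10 ran from -0.53 to -0.46, the 3 of Dnah6 from -0.50 to -0.36, the 2 of Dnah12 were -0.46 and -0.41, and the 2 of Dnah17 were -0.27 and -0.19. In 2 of the 3 probe sets of Dnah6 the groups did not overlap, while in its brightest, which stands for the gene, they did. The 2 probe sets of Dnah7b had -0.33 and 0.00, and its near copies Dnah7a and Dnah7c had -0.13 and -0.18 on probe sets of their own. The 2 probe sets shared by Dnah7a, Dnah7b and Dnah7c had -0.11 and -0.06 with overlap (adjusted p = 0.599 and 0.827 from limma). Transcripts this alike may hybridize to each other's probes, so the values of Dnah7b are uncertain. The 2 probe sets shared by Rsph3a and Rsph3b both had -0.33 without overlap (adjusted p = 0.132 and 0.120).

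**Figure D2:**
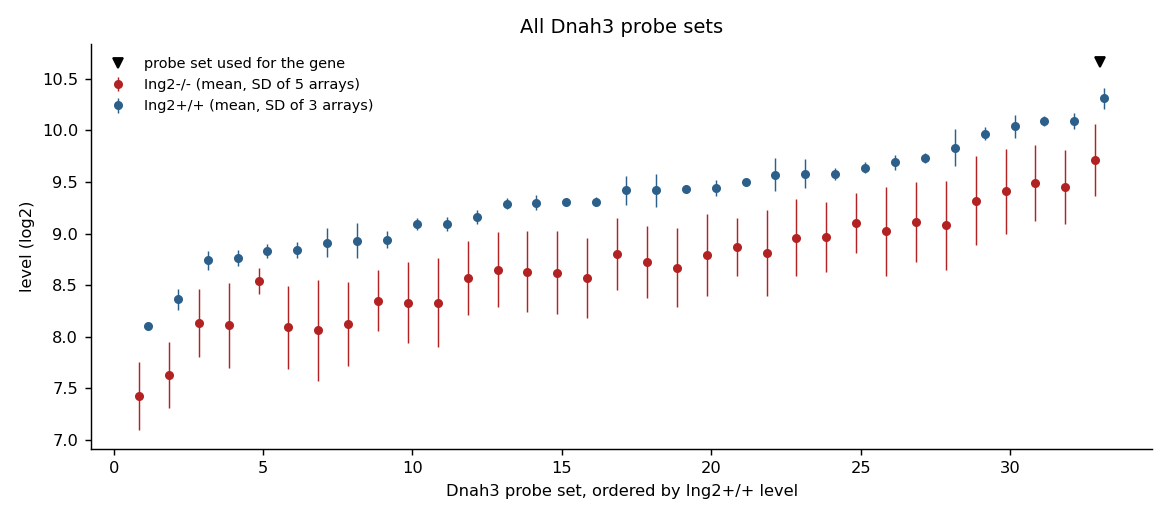
Level (y axis, log2) of the 33 Dnah3 probe sets (x axis, ordered by Ing2+/+ level) in Ing2-/- and Ing2+/+ testes, as mean with SD of 5 and 3 arrays. The Ing2-/- mean lies below the Ing2+/+ mean in all 33, and the triangle marks the brightest probe set, with -0.61.

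Dnaic2, an intermediate chain that holds the outer arm together at its base, had the second largest decrease of the set. It measured 8.72, 8.68, 7.89, 8.70 and 8.22 in Ing2-/- testes and 9.15, 9.11 and 9.21 in Ing2+/+ testes. All 5 Ing2-/- arrays lay below the 3 Ing2+/+ arrays, with replicates 3 and 5 lowest (log2 fold change -0.72, 0.608 of the Ing2+/+ level, SE 0.191, adjusted p = 0.0637 from limma, two-sided exact permutation p = 0.0179, the smallest that 56 splits allow). Dnah5 and Rsph4a, whose means lay under background in both groups, had the same permutation p of 0.0179, so this value does not set Dnaic2 apart. Some other genes without overlap had larger permutation p-values in the same test, such as 0.0357 for Spag1 and 0.125 for Hydin. Dnaic1, the partner chain of Dnaic2, had -0.41. The light chain Dnal1 of the outer arm measured 7.47, 7.08, 6.92, 7.35 and 7.15 in Ing2-/- testes and 7.50, 7.38 and 7.52 in Ing2+/+ testes, with 1 Ing2-/- array inside the Ing2+/+ range (log2 fold change -0.27, SE 0.121, adjusted p = 0.180). Dnali1, a light intermediate chain of the inner arm and one of the genes with an X-box half-site, averaged 10.06 ± 0.35 in Ing2-/- and 10.47 ± 0.06 in Ing2+/+ testes (SD, n = 5 and 3), a log2 fold change of -0.41 without overlap.

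Dynein arms are put together in the cytoplasm by assembly factors before they travel to the axoneme. Spag1, one of these factors, had the largest decrease of the 40 genes. It measured 8.96, 8.62, 8.10, 9.04 and 8.72 in Ing2-/- testes and 9.51, 9.37 and 9.38 in Ing2+/+ testes, without overlap (log2 fold change -0.73, 0.602 of the Ing2+/+ level, SE 0.191, adjusted p = 0.0611). Over the alternative settings its log2 fold change ran from -0.86 to -0.59 and its adjusted p from 0.0120 to 0.188, and it was called in 6 of 19. Dnaaf2 measured 8.07, 8.12, 7.54, 8.12 and 8.04 in Ing2-/- testes and 8.19, 8.35 and 8.40 in Ing2+/+ testes. The Ing2-/- arrays other than replicate 3 lay close together just under the Ing2+/+ range (log2 fold change -0.34, SE 0.137, adjusted p = 0.154). Dnaaf1, with a log2 fold change of -0.22, did not overlap between the groups either.

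Ccdc39 and Ccdc40 form the molecular ruler that spaces the inner arms and spokes along the doublet, and the other genes of this role encode the nexin-dynein regulatory complex. Ccdc40 measured 8.20, 8.16, 7.33, 8.15 and 7.87 in Ing2-/- testes and 8.41, 8.55 and 8.59 in Ing2+/+ testes. The groups did not overlap (log2 fold change -0.57, SE 0.190, adjusted p = 0.100). Drc1, a core subunit of the complex, measured 7.62, 7.57, 7.08, 7.72 and 7.20 in Ing2-/- testes and 7.78, 7.78 and 7.97 in Ing2+/+ testes, also without overlap (log2 fold change -0.41, SE 0.151, adjusted p = 0.128). Ccdc39, the partner of Ccdc40, had -0.20 and overlapped, and the subunits Iqcg (-0.26), Ccdc65 (-0.25) and Gas8 (-0.12) had smaller differences than Drc1, which were not tested against it. Gas8 was among the least different of the whole set, with 8.74 ± 0.20 in Ing2-/- and 8.86 ± 0.14 in Ing2+/+ testes (SD, n = 5 and 3).

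All 5 tektins, the filament proteins of the doublet wall, had negative log2 fold changes. Tekt4, which is needed for normal sperm movement in mice, measured 10.28, 10.26, 9.78, 10.59 and 10.18 in Ing2-/- testes and 10.58, 10.72 and 10.79 in Ing2+/+ testes. Ing2-/- replicate 4 touched the Ing2+/+ range and the other Ing2-/- arrays lay below it (log2 fold change -0.48, SE 0.156, adjusted p = 0.0963). Tekt3, whose promoter window holds a FOXJ1 motif, measured 9.65, 9.67, 9.03, 9.79 and 9.58 in Ing2-/- testes and 9.85, 9.87 and 9.97 in Ing2+/+ testes, without overlap (log2 fold change -0.35, SE 0.157, adjusted p = 0.182). Tekt5 had -0.36, Tekt2 -0.31 and Tekt1 -0.27. Tekt5 was tightest outside replicate 3, which stood at 9.30 while the other Ing2-/- arrays lay at 10.07 to 10.16 and the Ing2+/+ arrays at 10.30 to 10.35.

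Radial spokes have heads that face the central pair, and the head proteins too include a sperm form. Rsph6a, the spoke head protein of sperm, measured 9.52, 9.47, 8.64, 9.47 and 9.14 in Ing2-/- testes and 9.83, 9.85 and 9.91 in Ing2+/+ testes, without overlap (log2 fold change -0.61, 0.654 of the Ing2+/+ level, SE 0.191, adjusted p = 0.0888). Its paralog of multiciliated cells, Rsph4a, was at background, with 4.13 to 4.20 in Ing2-/- and 4.0 to 4.09 in Ing2+/+ testes, so its difference of 0.10 is not one of a detected gene. Rsph9, a further head protein, measured 9.54, 9.51, 8.61, 9.36 and 9.29 in Ing2-/- testes and 9.51, 9.63 and 9.72 in Ing2+/+ testes, with 1 Ing2-/- array inside the Ing2+/+ range (log2 fold change -0.36, SE 0.196, adjusted p = 0.267). Rsph1, which sits at the spoke head as well, had -0.14 and overlapped.

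In all 4 central apparatus genes every Ing2-/- array lay below every Ing2+/+ array, which held for 14.9% of all genes. Spag6 measured 9.57, 9.76, 9.12, 9.80 and 9.48 in Ing2-/- testes and 9.90, 10.16 and 10.17 in Ing2+/+ testes (log2 fold change -0.53, SE 0.152, adjusted p = 0.0751). Its paralog Spag6l, which carried the name Spag6 in older annotation and has its own probe set, had -0.15 with overlap (SE 0.133, adjusted p = 0.515). Spag16 measured 9.30, 9.22, 8.43, 9.30 and 9.09 in Ing2-/- testes and 9.60, 9.68 and 9.69 in Ing2+/+ testes (log2 fold change -0.59, SE 0.187, adjusted p = 0.0927). Apart from replicate 3 its Ing2-/- arrays lay within a narrow band, and without replicate 3 Spag16 had the smallest adjusted p of the set, 0.0101, at a log2 fold change of -0.43 (SE 0.0698). Spag17 and Hydin, 2 large proteins of the central pair projections, had -0.31 and -0.30 (adjusted p = 0.220 and 0.323 from limma). Their groups were only just apart. The highest Ing2-/- array was 10.65 in Spag17 and 9.90 in Hydin, and the lowest Ing2+/+ array 10.71 and 9.91.

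Spata18, a mitochondrial protein also named Mieap, and Spata6, which is needed for the connecting piece between sperm head and tail, stand outside the axoneme. Spata18 measured 11.69, 11.65, 11.20, 11.68 and 11.60 in Ing2-/- testes and 11.81, 11.85 and 11.81 in Ing2+/+ testes (log2 fold change -0.26, SE 0.115, adjusted p = 0.183). Spata6 measured 11.53, 11.50, 11.21, 11.59 and 11.52 in Ing2-/- testes and 11.73, 11.67 and 11.60 in Ing2+/+ testes (log2 fold change -0.19, SE 0.0918, adjusted p = 0.206). In both genes the groups did not overlap, and the Ing2-/- arrays other than replicate 3 lay close under the Ing2+/+ range.

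**Figure D3:**
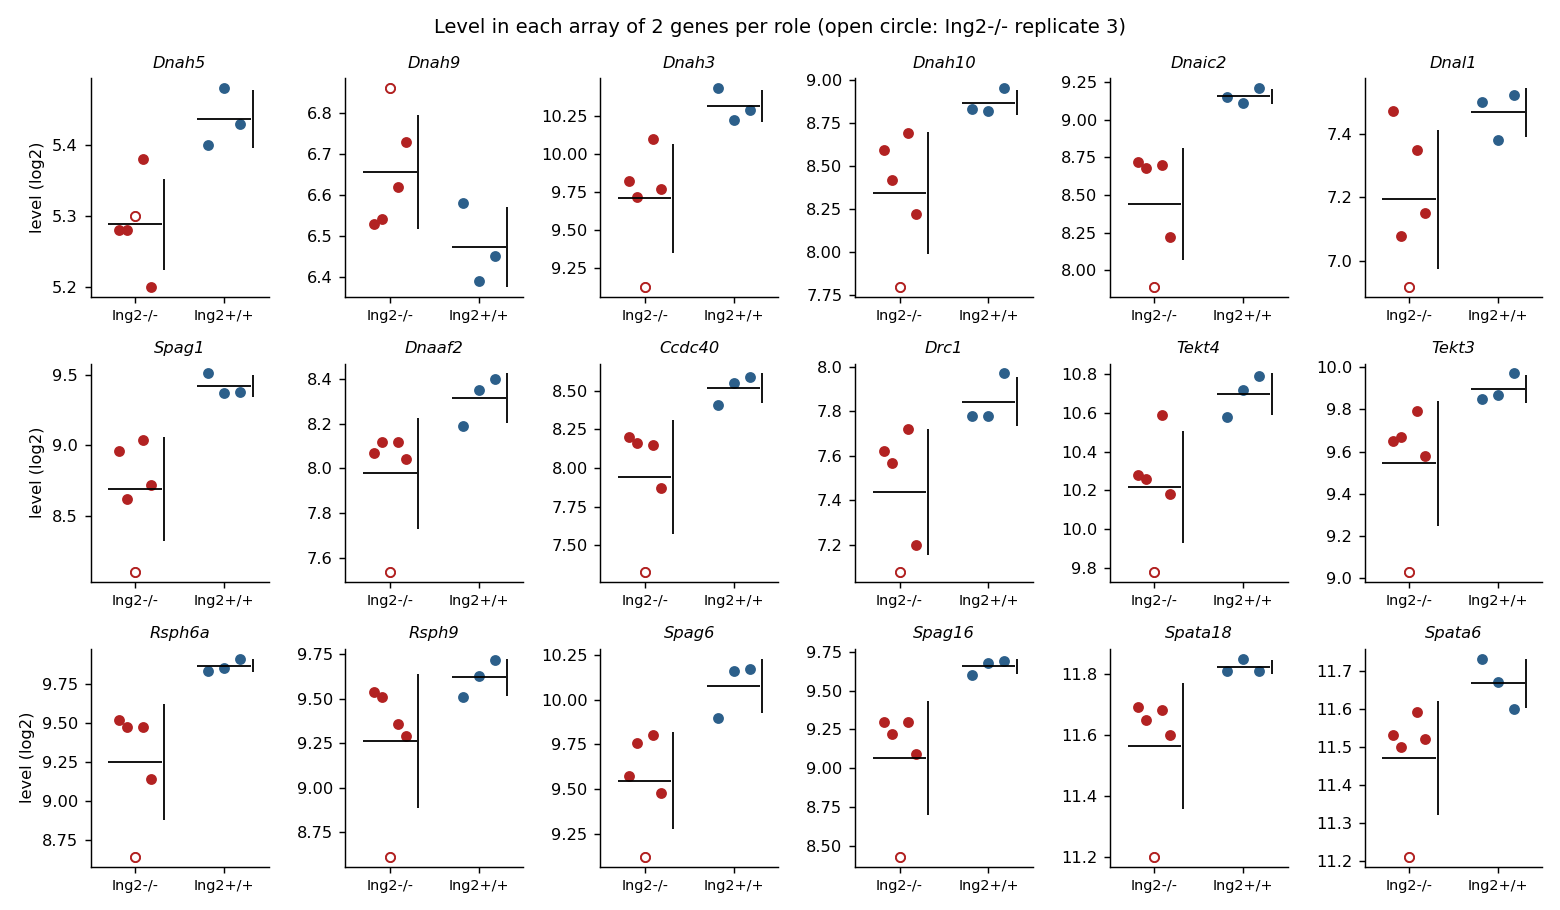
Level (y axis, log2, each panel with its own scale) in each Ing2-/- array and each Ing2+/+ array for the 2 genes with the smallest unadjusted p in each of the 9 roles, with the group mean as a line and the SD as a bar beside it. The open circle is Ing2-/- replicate 3, which is the lowest array in 16 of the 18 panels and the highest in that of Dnah9.

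Most genes of the axoneme outside the set were on the same side of 0. Of 95 listed genes of other dynein subunits, outer arm docking, assembly, spokes, central apparatus, regulatory complex, microtubule inner proteins and inner arm tethers, 79 were measured, 76 had negative log2 fold changes, and the median was -0.38, or -0.25 without Ing2-/- replicate 3. Limma called 3 of the 79 lower, against 3.01% of all genes, and 0 higher, against 1.97%. At an unadjusted p under 0.05, 37 were lower and 0 higher, against 2688 and 3288 of all 19938 genes. Efcab1, the calcium-binding protein calaxin of the outer arm docking complex, measured 6.35, 5.86, 5.63, 6.19 and 5.84 in Ing2-/- testes and 7.92, 7.60 and 7.74 in Ing2+/+ testes. Its log2 fold change of -1.78 (0.291 of the Ing2+/+ level, SE 0.162, adjusted p = 0.00299) was far outside the range of the 40 genes, its groups lay well apart, and it was called whichever array was left out. The other docking genes had Armc4 -0.57, Ccdc151 -0.49, Ccdc63 -0.47, Ttc25 -0.35 and Ccdc114 -0.03, none of them called.

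Iqca, a subunit of the nexin-dynein regulatory complex, measured 7.55, 7.51, 6.77, 7.78 and 7.14 in Ing2-/- testes and 8.23, 8.20 and 8.25 in Ing2+/+ testes (log2 fold change -0.87, SE 0.203, adjusted p = 0.0471). Spef2, a central apparatus protein needed for the sperm tail, measured 8.93, 8.73, 8.17, 9.05 and 8.56 in Ing2-/- testes and 9.71, 9.44 and 9.49 in Ing2+/+ testes (log2 fold change -0.86, SE 0.185, adjusted p = 0.0401). In both the groups were apart. Both calls held without Ing2-/- replicate 3 or 4 and were lost without any 1 of the other 6 arrays, where the adjusted p-values of Iqca were 0.0651 to 0.157 and those of Spef2 0.0539 to 0.153. The count of called genes on these lists was 28 without Ing2-/- replicate 3, 8 without Ing2-/- replicate 4 and 1, Efcab1, without each of the other arrays. The calls over all genes varied in the same fits, with 1547 lower (7.76%) without Ing2-/- replicate 3, 656 without Ing2-/- replicate 4 and 36 to 346 without each of the others.

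**Figure D4:**
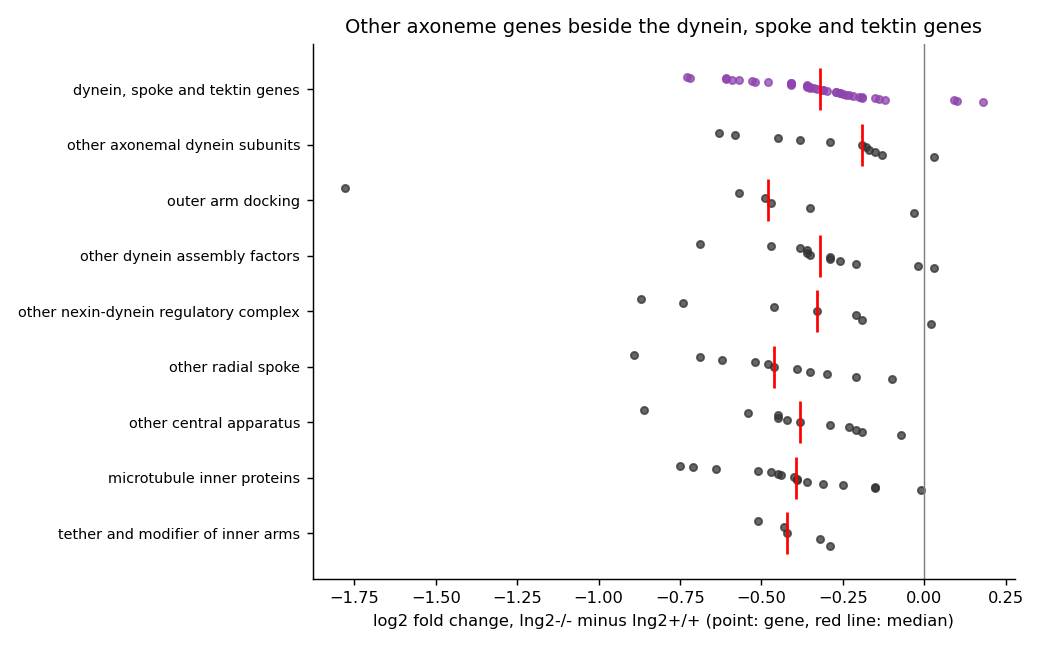
Log2 fold change (x axis, Ing2-/- minus Ing2+/+) of each gene, as points, with the median of each list as a red line, for the 40 dynein, spoke and tektin genes and 8 lists with 79 other axoneme genes. The medians lie between -0.19 and -0.48, and the point farthest left is Efcab1 with -1.78.

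Genes of the cytoplasmic dyneins, of dynactin and of their regulators served as a comparison. These 20 genes had a median log2 fold change of -0.01, with 11 negative and values from -0.81 to 0.55, on both sides of 0. At an unadjusted p under 0.05, 5 were lower and 4 higher, against 2688 and 3288 of all 19938 genes. In 5 genes every Ing2-/- array lay below every Ing2+/+ array (14.9% of all genes), and in 3 above (16.7% of all genes). The mean over the 20 genes deviated by -0.04 to 0.01 in the Ing2-/- arrays. One of the 20, the dynactin subunit Dctn6, was called lower, where 3.01% of all genes were. Dctn6 measured 9.20, 9.11, 8.58, 9.19 and 8.55 in Ing2-/- testes and 9.73, 9.70 and 9.78 in Ing2+/+ testes (log2 fold change -0.81, SE 0.171, adjusted p = 0.0383). It was named after its values had been seen. Its call held without Ing2-/- replicate 1, 3 or 4 and was lost without any of the other 5 arrays, at adjusted p-values of 0.0524 to 0.139.

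Markers of the germ cells that carry these genes were lower in the same arrays. The 18 round spermatid markers, none of them in the set, all had negative log2 fold changes with a median of -0.39, and 1 of the 18, the sperm calcium channel gene Catsper1 (-0.74, adjusted p = 0.0498), was called lower, where 3.01% of all genes were. Their mean level was 9.25 to 10.00 in Ing2-/- and 10.12 to 10.19 in Ing2+/+ testes. Of the 12 pachytene spermatocyte markers 11 were negative (median -0.23, mean level 9.93 to 10.37 in Ing2-/- and 10.45 to 10.52 in Ing2+/+ testes, the chaperone Hspa2 called at -0.40), and all 17 markers of elongating spermatids and sperm were (median -0.22, 10.71 to 11.23 in Ing2-/- and 11.30 to 11.39 in Ing2+/+ testes, 0 called by limma, with 5 lower at an unadjusted p under 0.05, where 13.5% of all genes were). The 17 Sertoli markers measured were all positive (median 0.55, mean level 8.45 to 9.27 in Ing2-/- and 8.16 to 8.17 in Ing2+/+ testes), and so were the 10 Leydig markers (median 0.58, 9.20 to 10.02 in Ing2-/- and 8.90 to 8.98 in Ing2+/+ testes), with Defb36 called higher among the Sertoli markers and the steroidogenic genes Cyp11a1, Cyp17a1, Hsd3b1, Hsd17b3 and Fdx1 among the Leydig markers. Over all genes 1.97% were called higher. The medians of spermatogonia (0.14), macrophages (0.39), peritubular myoid cells (0.26) and endothelial cells (0.21) were positive, with 1 gene of the 4 lists, Kdr, called higher. Without Ing2-/- replicate 3 limma called 7 round spermatid, 2 pachytene and 3 elongating spermatid markers lower (7.76% of all genes) and 11 Sertoli and 6 Leydig markers higher (8.72% of all genes), and the medians of the 3 germ cell lists were -0.26, -0.16 and -0.14. Fewer cells of a type and less RNA per cell cannot be told apart in whole testis RNA.

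In Ing2-/- replicates 1 to 5 the mean of the round spermatid markers deviated from that of Ing2+/+ testes by -0.27, -0.31, -0.91, -0.16 and -0.35, and the mean of the 40 genes by -0.16, -0.21, -0.77, -0.14 and -0.35. The set minus the round spermatid markers was 0.12, 0.09, 0.14, 0.02 and 0.01 in the Ing2-/- arrays and 0.03, -0.01 and -0.01 in the Ing2+/+ arrays. The set minus the pachytene markers was -0.04, 0.05, -0.21, 0.00 and -0.11 in the Ing2-/- arrays and -0.04, 0.02 and 0.03 in the Ing2+/+ arrays. The set minus the markers of elongating spermatids was -0.04, -0.10, -0.14, 0.05 and -0.02 in the Ing2-/- arrays and 0.03, -0.01 and -0.02 in the Ing2+/+ arrays. In Ing2-/- replicate 3 the set thus lay above the round spermatid markers and below the other 2 lists. The part of the cell mix in the levels of the 40 genes was not tested.

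Multiciliated cells of the efferent ducts could add axoneme transcripts if duct tissue stayed with the testis. Their 12 markers had a median log2 fold change of -0.07, a mean level of 6.43 to 6.68 in Ing2-/- and 6.61 to 6.68 in Ing2+/+ testes, and 3 of the 12 under background in both groups, with 0 called by limma and 3 lower at an unadjusted p under 0.05 (13.5% of all genes). The 9 epididymis markers measured had a mean level of 5.08 to 5.60 in Ing2-/- and 5.20 to 5.26 in Ing2+/+ testes, 5 of them under background in both groups, with 0 called by limma and 1 lower at an unadjusted p under 0.05 (13.5% of all genes).

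**Figure D5:**
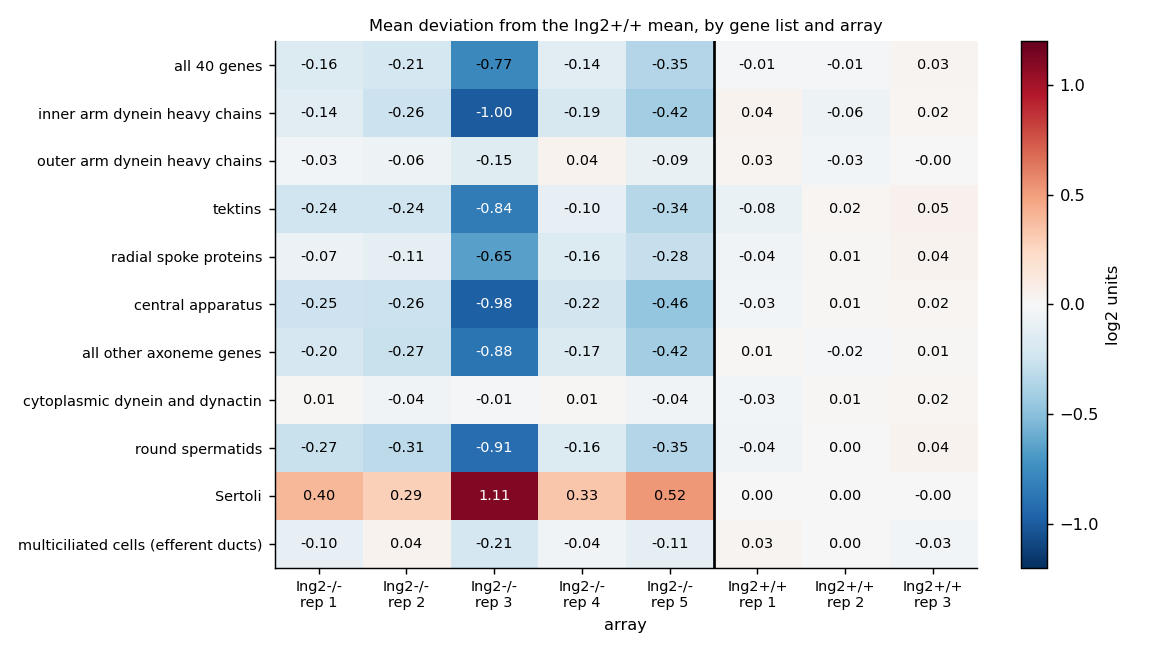
Mean deviation from the Ing2+/+ mean (colour and printed value, log2 units) of gene lists (rows) in the 5 Ing2-/- and 3 Ing2+/+ arrays (columns). The 40 genes and the round spermatid markers are lowest in Ing2-/- replicate 3 (-0.77 and -0.91), where Sertoli markers are highest (1.11) and the mean of the cytoplasmic dynein and dynactin genes is -0.01.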

How the data were processed

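Affymetrix Mouse Gene 1.0 ST arrays measured total RNA of whole testes from 5 Ing2-/- and 3 Ing2+/+ mice. The deposited log2 values are the authors' gene-level RMA summaries from Affymetrix Expression Console (version not given in the sources) and were not scaled further. RMA removes differences in total RNA per testis. Probe sets were named from the platform annotation, with symbols updated through gene identifiers to the RefSeq table of GRCm38.p6. Of 35557 probe sets, 21789 carried exactly 1 symbol and name 19938 genes, and a probe set with several symbols or none names no gene here.

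A linear model with genotype as its only term was fitted with limma 3.58.1 (lmFit and eBayes) under R 4.3.3. A gene was called at a Benjamini-Hochberg adjusted p under 0.05, taken over all 35557 probe sets. Each mouse gave 1 array, and the number of arrays limits the precision. The fit was tested on simulated data. Array medians were 6.46 to 6.53 in Ing2-/- and 6.41 to 6.45 in Ing2+/+ testes. A list is described by its counts, its median and the mean deviation of its genes from the Ing2+/+ mean in each array. Background was taken as the median level of the 12147 unnamed probe sets on an array. The fit was repeated with the replicate number as a block, with each array left out, after 2 filters of probe sets, after cyclic loess or a shift to equal medians, with the random variance model that the methods name, with an intensity trend and robust estimation, with unmoderated variances, with array weights, and with a gene's probe sets averaged.

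The genes, the lists of other axoneme genes and of cell type markers, the motifs and the rule for naming genes were chosen with earlier results of these data known. By that rule the text gives the value in every array for genes called by limma and for the 2 genes of each role with the smallest unadjusted p, other genes of the set by their log2 fold change, and up to 3 called genes of each list of other axoneme genes. Dctn6, Spag6l, the other docking genes and the called markers were named after their values had been seen. Protein sequences were not analysed here. Python 3.11.15 and matplotlib 3.10.9 drew the figures.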

Additional observations from a re-analysis of the deposited data

Results flagged for a closer look

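In 12 of the 40 genes, 1 of the 5 Ing2-/- arrays stood so far from its neighbour that the gap, divided by the range of the 5 arrays, passed Dixon's critical value of 0.71, which chance passes in about 1 of 20 groups. In all 12 the array was Ing2-/- replicate 3, and in all 12 it was the lowest. The ratio was 0.901 for Tekt5, 0.862 for Dnaaf2, 0.836 for Spata18, 0.779 for Rsph1, 0.773 for Spata6, 0.764 for Dnah8, 0.762 for Spag16, 0.728 for Tekt3, 0.724 for Dnah12, 0.724 for Rsph9, 0.717 for Dnah17 and 0.712 for Ccdc65. The genes share the array, so the 12 are not independent of each other. Without this array the log2 fold changes of Dnah17 and Rsph1 were -0.05 and -0.06, against -0.19 and -0.14 with it, while that of Spag16 was -0.43 against -0.59.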

How the results depend on the processing

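All 40 genes kept the direction of their difference under every alternative that gave them a value. The count called lower, 0 by limma with 12 at an unadjusted p under 0.05, was 0 to 8 when 1 array was left out. With only probe sets above the median level it was 2 of 37 genes, where 688 of all 11617 genes were called lower. It was 2 with only probe sets of 1 symbol (902 of all 19938 genes), 1 with cyclic loess (904 of all genes) and 9 with array weights (1851 of all genes). Under the other settings it was 0. None was called higher under any. With the replicate number as a block, 0 of the 40 genes and 0 of all genes were called lower, and 0 of all genes higher. Deviations of same-numbered arrays correlated at -0.06, 0.18 and 0.01, so the numbers were not taken as pairs. Of the other axoneme genes, 3 were called lower, 0 with the block, 1 to 28 with 1 array left out, 8 above the median level, 7 with 1 symbol, 7 with cyclic loess, 1 by the random variance model at an unadjusted p under 0.001, 1 with unmoderated variances and 29 with array weights. Over all genes, 600 were called lower, with 36 to 1547 when 1 array was left out, 902 with 1 symbol, 904 with cyclic loess, 365 by the random variance model at the unadjusted p, 89 with unmoderated variances and 1851 with array weights. Over all genes, 392 were called higher, with 4 to 1739 when 1 array was left out, 657 of 11617 above the median level, 744 with 1 symbol, 257 with equal medians, 175 by the random variance model at the unadjusted p, 224 with the intensity trend, 53 with unmoderated variances and 2256 with array weights. The 2 filters test fewer probe sets, and the cause of the other shifts was not tested. Levels near background, as in Dnah5, Dnah11 and Rsph4a, limit what their differences show.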
